A study of Mus musculus with 6 samples.

Results

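The 581 genes described here lie on mouse chromosome 3 (GRCm38) and had a mean of at least 2 CPM, counts scaled to equal library size, over 6 sequencing libraries. They were taken from the 55334 gene rows of the deposited counts, of which 2875 lie on chromosome 3, and are ordered by start position from Zfhx4 to Wls. RNA came from Lewis lung carcinoma cells, a mouse lung tumour line, that carried green fluorescent protein (GFP) and a CRISPR guide RNA. The guide was either a scrambled control (Scramble, 3 libraries) or directed against the Notch ligand gene Jag2 (JAG2KO, 3 libraries). The cells of both groups were grown as tumours in the flanks of mice, and at endpoint GFP-positive, CD45-negative, DAPI-negative cells were sorted and their polyA RNA was sequenced. The mouse strain, age and sex, the number of mice behind each library, and whether the JAG2KO line is 1 clone are given neither in the labels nor in the study's design text. Nothing says that the libraries of a group came from separate tumours, so the p-values measure only how far these samples scatter, which may be technical scatter.

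The chromosome was chosen by its counts of genes higher and lower in JAG2KO, read from the same comparison of the same libraries, so those counts and its median are given as a description. All 581 members passed the count filter of the test over all genes. The mean CPM that sets membership is computed over both groups. Adh7 (mean 2.001 CPM, log2 fold change -0.53) lay just inside this limit, and Muc1 (mean 1.917 CPM, log2 fold change -0.55) just outside it, and neither passed the test.

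Genes of 1 chromosome have no common function. They share a physical molecule, and in tumour lines the number of copies of a chromosome or of a part of it can differ between cells of the same line, which is why RNA levels are often read in order of position. Chromosome 3 of the mouse carries genes of many pathways. Among them are the Notch receptor gene Notch2, the macrophage growth factor gene Csf1, the nuclear lamina gene Lmna, the NF-kappaB subunit gene Nfkb1, a cluster of S100 calcium-binding protein genes and a cluster of interferon-induced guanylate-binding protein genes. DNA was not measured in these libraries.

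The sequences before the start of 4 members are shown because these genes, from different parts of the chromosome, include both directions: Notch2, Tmem131l and S100a4 rose and Ptgfrn fell. They are the called members with the smallest p, 3 upward and 1 downward, among the genes named below that have 1 start in the RefSeq table (GRCm38.p6) and no annotated exon in the window. Each is written 5′ to 3′ on the gene's own strand and ends before the annotated start of the gene. Capitals mark the letters TGGGAA or their reverse complement TTCCCA, the core bound by RBPJ, the DNA-binding protein of the Notch pathway.
Notch2: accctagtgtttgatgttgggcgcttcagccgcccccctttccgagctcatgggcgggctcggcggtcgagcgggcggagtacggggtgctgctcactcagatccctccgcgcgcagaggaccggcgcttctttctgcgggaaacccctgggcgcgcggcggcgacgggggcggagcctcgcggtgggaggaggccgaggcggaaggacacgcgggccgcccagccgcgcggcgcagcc
Tmem131l: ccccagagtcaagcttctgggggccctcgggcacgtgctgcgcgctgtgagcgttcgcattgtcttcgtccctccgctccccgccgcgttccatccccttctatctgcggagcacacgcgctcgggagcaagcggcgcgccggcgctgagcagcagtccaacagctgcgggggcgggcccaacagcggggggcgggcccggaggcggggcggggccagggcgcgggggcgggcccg
S100a4: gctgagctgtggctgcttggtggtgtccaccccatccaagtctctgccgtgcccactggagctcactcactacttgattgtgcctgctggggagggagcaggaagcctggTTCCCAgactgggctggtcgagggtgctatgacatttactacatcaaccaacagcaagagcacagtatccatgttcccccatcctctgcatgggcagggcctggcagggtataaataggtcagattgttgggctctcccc
Ptgfrn: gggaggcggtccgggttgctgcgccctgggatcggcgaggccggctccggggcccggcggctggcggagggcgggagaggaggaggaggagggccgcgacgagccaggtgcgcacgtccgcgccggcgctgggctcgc

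The Notch2 sequence lies at chr3:98013288-98013526 on the plus strand and that of Tmem131l at chr3:84040176-84040411 on the minus strand. S100a4 has chr3:90603520-90603769 on the plus strand and Ptgfrn chr3:101110279-101110416 on the minus strand. The letters occurred in S100a4 alone among these windows. Only the S100a4 window has the full 250 bases. Those of Notch2, Tmem131l and Ptgfrn have 239, 236 and 138 bases and so less room for a match. Over the table, 21.6% of 32851 windows of 250 bases before a start held them on either strand. A match describes the letters and not binding.

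The deposited libraries held 37036772 to 43923565 counts, and 3 counts were worth 0.068 to 0.0811 CPM. Jag2 itself measured 1.52, 1.1 and 1.02 CPM in Scramble replicates 1, 2 and 3. It measured 0.513, 0.798 and 1.11 CPM in the JAG2KO libraries, which are named by their columns JagKO2, JagKO3 and JagKO4 and are listed in that order throughout. The groups overlapped (adjusted p by edgeR = 0.318), and an edited gene can still be transcribed, so this level does not check the labels. Summed markers of macrophages, endothelial cells and pericytes or fibroblasts were higher in every JAG2KO library than in any Scramble library. The sum of 10 macrophage markers was 60.5 to 69.7 CPM in Scramble and 92.6 to 111 CPM in JAG2KO, with 4 called higher and 1 lower. The sum of 8 endothelial markers was 25.7 to 29 CPM and 39.2 to 52.8 CPM, with 4 called higher. The sum of 8 pericyte and fibroblast markers was 1024 to 1131 CPM and 1241 to 2038 CPM, with 3 called higher and 1 lower. Among its largest terms, Col1a1 lay apart, at 229.9 to 391 CPM in Scramble and 430.1 to 803 CPM in JAG2KO. Dcn (328.5 to 406 CPM and 359.4 to 576 CPM) and Lum (259 to 299.8 CPM and 280.7 to 455.5 CPM) overlapped and did not pass. Lymphocyte markers summed to 1.31 to 1.75 CPM and 1.3 to 4.89 CPM, which overlap, and Ptprc, which encodes the sorted-out antigen CD45, measured 2.09 to 2.24 CPM and 2.42 to 3.88 CPM. Of the simple epithelial markers, Krt18 measured 258 to 272.5 CPM in Scramble and 279 to 332 CPM in JAG2KO, and Krt8 119 to 128 CPM and 3.17 to 4.71 CPM. No marker was at 0 in all libraries, and the part of other cell types in the results below was not tested.

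Chromosome 3 RNA took a larger share of every JAG2KO library than of any Scramble library. The 581 members held 4.861%, 4.793% and 4.845% of all counts in Scramble replicates 1, 2 and 3. In JAG2KO they held 5.446%, 5.587% and 5.615%. The group means were 4.833% ± 0.0356 and 5.549% ± 0.0906 (SD, n = 3). In bulk RNA, more cells with a gene's RNA and more RNA per cell cannot be told apart. The gain was spread over many genes. On the scale of CPM with TMM-scaled library sizes, the sum over members was 48410 CPM for Scramble and 55403 CPM for JAG2KO. The 5 members with the largest gain in CPM (Lmna, Csf1, Ccn1, Rps3a1 and Nfkb1) made up 31.2% of the difference, and Lmna alone 10.7%.

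**Figure D1:**
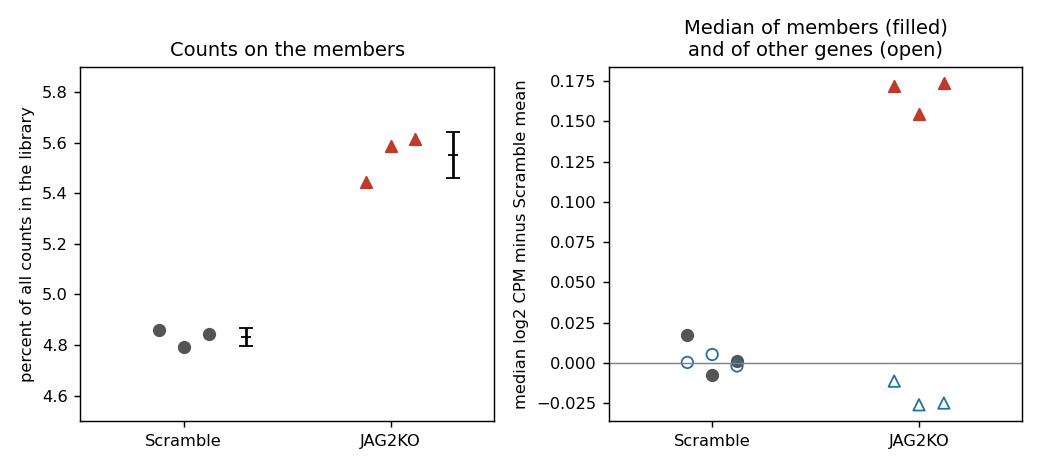
Left, the percent of all counts that fell on the 581 members in each library (y axis from 4.5%), with the mean and SD beside each group. Right, the median over genes of log2 CPM minus the Scramble mean, for the members (filled) and for genes of all other chromosomes (open). The 3 JAG2KO libraries lie at 0.15 to 0.17 for the members and slightly below 0 for the other genes.

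Most members were a little higher in JAG2KO, and a minority moved far. The edgeR quasi-likelihood test with Benjamini-Hochberg adjustment over all 16049 tested genes called 189 members higher and 30 lower, and 362 did not pass. Over all tested genes 11.8% were called higher and 12.5% lower. The members' shares were 32.5% and 5.16%. The CPM values of the 3 JAG2KO libraries all lay above those of Scramble for 265 members and all below for 53, where this held for 19.5% and 20.9% of all tested genes. The median log2 fold change of the members was 0.17, or 1.12-fold, beside a median of 0.0018 over all tested genes and -0.018 over the 10915 genes of other chromosomes at or above 2 CPM. Of the members 74.4% had a log2 fold change above 0, against 47.5% of those other genes.

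Most of the members' differences were small. The middle 50% of the members lay between -0.0052 and 0.33 on the log2 scale, and 350 of them, 60.2%, lay between 0 and 0.5, against 39.2% of the genes elsewhere. Of the 189 members called higher, 121 had a log2 fold change under 0.5. Called changes of at least 2-fold numbered 19 upward and 10 downward. Values above 1 on the log2 scale made up 3.44% of the members and 2.43% of the genes elsewhere, and values under -1 made up 1.72% and 2.34%. Against the Scramble mean, the median member stood at 0.17, 0.15 and 0.17 in JagKO2, JagKO3 and JagKO4. It stood at 0.018, -0.0072 and 0.0013 in Scramble replicates 1, 2 and 3. The 3 JAG2KO libraries were thus close to each other, and none reached down to the Scramble range.

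Among the 19 autosomes and the X chromosome, chromosome 3 had the highest share of genes called higher, the lowest share called lower and the highest median. The next highest median was 0.091 on chromosome 14, where 97 of 386 genes were called higher and 21 lower. Chromosome 10 followed with 128 of 559 higher, 49 lower and a median of 0.090. Chromosomes 12 and 19 had medians of -0.16 and -0.15, with 30 of 407 and 31 of 418 genes called higher and 133 and 129 lower. The other chromosomes were not level either, so chromosome 3 stood at 1 end of a range that ran from -0.18 on the X chromosome. No test was made of the difference between chromosomes, since this one was chosen for its rise. Of the members with a sequence before a start, 39 of 152 called higher held TGGGAA or TTCCCA at 1 or more of their starts, 4 of 24 called lower and 55 of 259 of the others, beside 24.1% of all genes in the table.

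**Figure D2:**
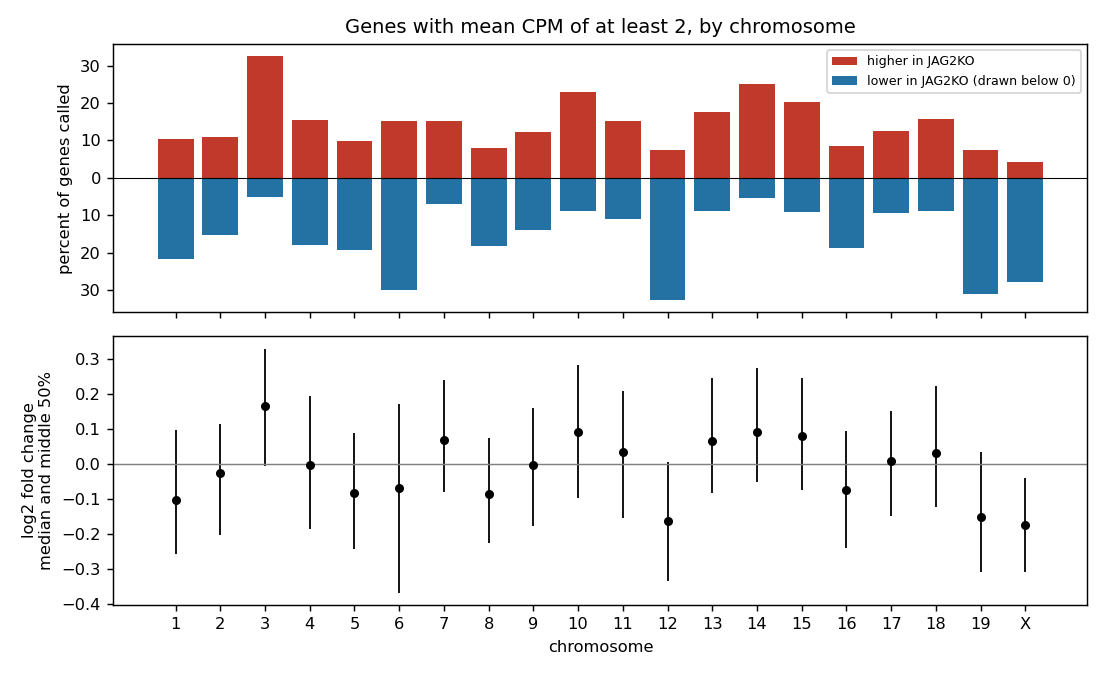
Genes of each chromosome whose mean is 2 CPM or more. Top, percent called higher and percent called lower in JAG2KO (drawn below 0). Bottom, median log2 fold change, with lines over the middle 50% of genes. Chromosome 3 has 32.5% called higher, the tallest upper bar, and the highest median.

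The rise ran along the chromosome rather than in 1 block. In bins of 10 Mb from the first base, all 15 bins with at least 10 members had a median log2 fold change above 0, from 0.032 to 0.25. On the other chromosomes this held for 117 of 237 such bins, among them 14 of 15 on chromosome 7, 11 of 12 on chromosome 13 and 9 of 10 on chromosome 14. More members were called higher than lower in 12 of the 15 bins, and the number of calls was equal in the other 3. The highest median belonged to the bin from 30 to 40 Mb, where 16 of 37 members were called higher and 1 lower. The bin from 40 to 50 Mb followed with a median of 0.22, but 1 of its 12 members was called higher and 1 lower. In the bins from 50 to 60 and from 80 to 90 Mb, both with a median of 0.19, 18 of 39 and 26 of 85 members were called higher. At the far end the bin from 150 to 160 Mb had a median of 0.18, with 10 of 25 members called higher. In 12 of the 15 bins the median of each JAG2KO library lay above that of every Scramble library, and the 3 exceptions were the bins from 10 to 20, 20 to 30 and 40 to 50 Mb. Library medians lay apart in this way in 61 of 237 bins on the other chromosomes, and in 10 of 10 on chromosome 14.

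The stretch from 10 to 30 Mb came nearest to no difference. The first bin, from 0 to 10 Mb, held 9 members with a median of 0.16, 3 of them called higher, and each JAG2KO library median lay above every Scramble one. The bins from 10 to 20 and 20 to 30 Mb had medians of 0.032 and 0.047, with 1 higher and 1 lower call among 19 members and 2 and 2 among 11. The lowest bin median was not stable: it was -0.0093 to -0.033 when any 1 JAG2KO library was left out, and -0.05 when trends with GC content and transcript length were removed. Below 30 Mb, a border set after the values were seen, 39 members had a median of 0.047, with 6 called higher, 3 of these in the first bin, and 3 lower. From 30 Mb on, 542 members had a median of 0.18, with 183 called higher and 27 lower. Running medians over 15 neighbouring members were above 0 in 531 of 567 windows. The other 36 lay in 4 places. They were 10 windows centred at 16 to 22 Mb, 11 at 89 Mb, 7 at 122 to 123 Mb and 8 at 146 to 147 Mb, with lowest medians of -0.12, -0.034, -0.012 and -0.020. The lowest of all, at -0.12, ran from Car3 to Nceh1 (14863512 to 27284608). It held Mtfr1, a regulator of mitochondrial fission, with 99.5, 95.8 and 85.7 CPM in Scramble and 66.9, 71.1 and 65.3 CPM in JAG2KO, and Gyg, the primer of glycogen synthesis, with 61.5, 56.8 and 60.9 CPM and 46.5, 42.6 and 49.1 CPM. All JAG2KO values of both genes were below all Scramble values, and both fell (log2 fold change -0.47 and -0.37, adjusted p by edgeR = 0.000725 and 0.00408).

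**Figure D3:**
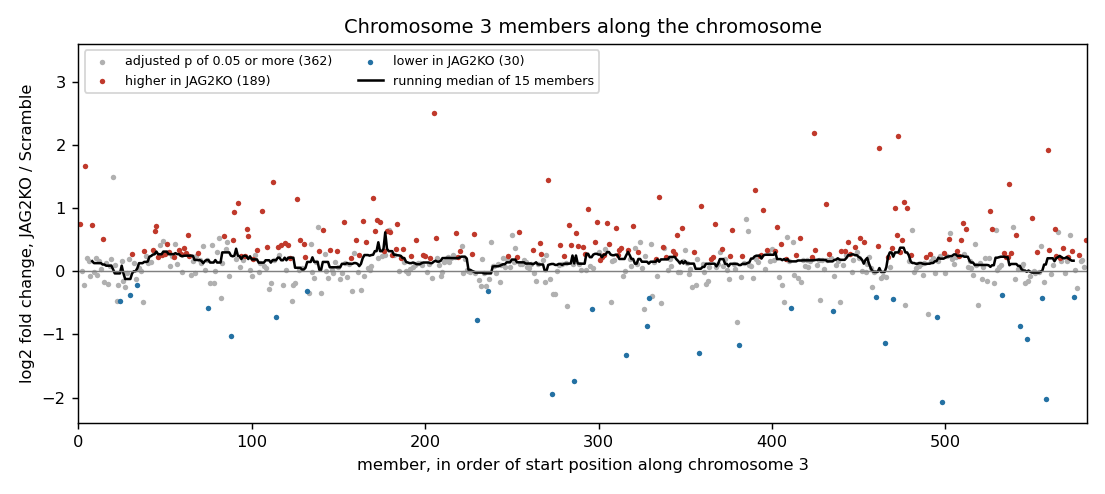
Log2 fold change of each member (points) against its place in the order of start positions, coloured by the edgeR call, with the running median of 15 members (line). The line is above 0 in 531 of 567 windows. The other 36 lie in 4 places along the order, of which the first dips lowest.

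**Figure D4:**
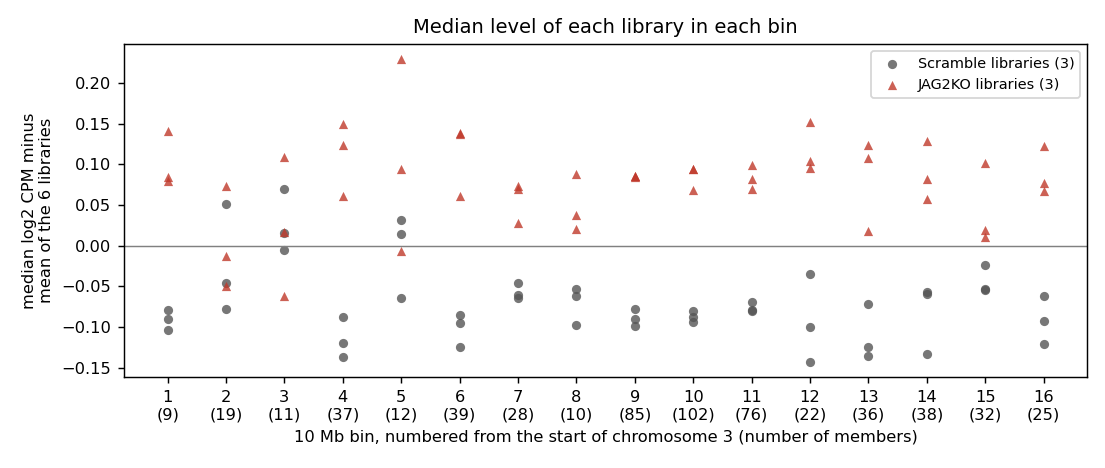
For each 10 Mb bin (x axis, with the number of members), the median over members of log2 CPM minus the mean of the 6 libraries, 1 point per library. JAG2KO (triangles) and Scramble (circles) do not overlap in 12 of the 15 bins with at least 10 members, nor in the first bin, which has 9.

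The highest window depended on the window size. The highest window of 15 members, with a median of 0.62, ran from Sfrp2 to Dclk2 (83766321 to 86920852), and 10 of its members were called higher. Shifted by 1 member to either side its median was 0.36. With windows of 31 members the highest, with a median of 0.28, ran from Tuft1 to Rprd2 (94612757 to 95818863), with 18 called higher and 2 lower. Tmem131l, a transmembrane protein gene, measured 45.7, 44 and 41.6 CPM in Scramble and 78.2, 77.4 and 74.5 CPM in JAG2KO. Its groups lay wholly apart, with a log2 fold change of 0.81 (SE 0.069, adjusted p by edgeR = 7.28e-06). Dclk2, a doublecortin-like kinase gene, measured 67.7, 61.3 and 77.4 CPM and 114, 117 and 118 CPM, and Sh3d19, an adaptor gene, 95.2, 92.3 and 94.4 CPM and 159.8, 132 and 140.1 CPM. In all 3 genes each JAG2KO library exceeded each Scramble library. The ubiquitin ligase gene Trim2 rose as well, with a log2 fold change of 0.79 (adjusted p by edgeR = 0.000109). The other 5 members of the Sfrp2 to Dclk2 window did not pass, but had log2 fold changes above 0, such as Mnd1, Arfip1 and Gatb at 0.21, 0.25 and 0.26.

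Runs of neighbours without an exception were short. The longest run of members above 0 held 24, from Pdgfc to Pear1 (81036416 to 87824306), of which 13 were called higher. The longest run of members called higher held 6, from Arsj to Alpk1 (126363684 to 127780527), and included Camk2d and Ank2. The longest stretch with no member called lower held 97, from Mme to Thbs3, with 34 called higher. The opposite pattern stood right beside it. From Thbs3 to Il6ra (89215180 to 89913196), 19 members in a row were not called higher, 2 were called lower and the median was -0.021. These include Trim46 and the metalloproteinase gene Adam15, with log2 fold changes of -0.77 and -0.32 (adjusted p by edgeR = 0.000544 and 0.0133). Members called lower were scattered: of the 30, 13 had a neighbour called higher and 2 had a neighbour called lower. Across the 580 pairs of neighbours the log2 fold changes correlated at r = 0.009, given as a description because genes are not independent replicates. A piecewise constant fit along the order placed no border and left 1 segment of 581 members. The same fit also gave 1 segment on chromosomes 1, 2, 8, 14, 15, 17 and 18. It gave 2 segments on chromosome 10 and 3 on each of chromosomes 12 and 19. That it placed no border here does not show that the members share 1 level.

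Among the members, the median shift was about equal at all expression levels. With the members split by mean CPM into 3 groups of nearly equal size (up to 20.2, up to 71.8 and up to 2082 CPM) the median log2 fold change was 0.16, 0.18 and 0.17. More were called higher at higher levels, 39 of 194, 66 of 193 and 84 of 194, where the counts behind each test were also larger. In these groups 64.4%, 79.8% and 78.9% lay above 0, and 16, 8 and 6 members were called lower. The 249 tested chromosome 3 genes under 2 CPM had a median of 0.21, with 12 (4.82%) called higher and 11 (4.42%) lower. The shift differed more with transcript length. In 3 such groups by longest annotated transcript (up to 2803, up to 4470 and up to 19300 bases) the median was 0.10, 0.16 and 0.24. Genes of other chromosomes in the same length ranges had medians of -0.057, -0.036 and 0.051, so the members stood above them by a similar amount in each range. In 3 groups by GC content of that transcript, from low to high, the median was 0.17, 0.22 and 0.11, and -0.0053, -0.024 and -0.021 for genes elsewhere. By gene type 534 members are protein-coding and 187 of these were called higher. Of 20 processed pseudogenes 1 was called, and it was lower. Their reads can be shared with parent genes.

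With unnamed gene models (Gm, Rik or clone symbols) left out, the 6 largest increases without overlap were all in genes below 5.1 CPM in every Scramble library. Ank2, which encodes the membrane adaptor ankyrin-B (126921612 to 127499350, minus strand), measured 5.1, 4.49 and 4.99 CPM in Scramble and 19.2, 22.2 and 23.3 CPM in JAG2KO. Its groups did not overlap, the log2 fold change was 2.15 (SE 0.13) and the adjusted p by edgeR = 3.3e-07. Sema4a, a membrane semaphorin gene (88435959 to 88461182, minus strand), measured 1.52, 2.45 and 2.67 CPM and 7.21, 20 and 10.6 CPM, with its highest value in JagKO3. Its log2 fold change was 2.51 (SE 0.34, adjusted p by edgeR = 0.000259). Pde5a, the cyclic GMP phosphodiesterase gene, measured 1.74, 1.83 and 1.7 CPM and 7.05, 7 and 6.44 CPM. Ptgfr, the prostaglandin F receptor gene, measured 1.36, 1.93 and 1.7 CPM and 7.78, 5.43 and 5.61 CPM. Both rose without overlap, by 1.95 and 1.91 on the log2 scale (adjusted p by edgeR = 1.75e-05 and 0.000112). Pericytes are known to express Pde5a, and their marker Rgs5 measured 6.03 to 8.63 CPM in Scramble and 21.2 to 38.6 CPM in JAG2KO. Pdgfrb, on the same marker list, measured 22.8 to 28.9 CPM and 41.3 to 54.4 CPM. Cspg4, also listed, measured 0.688 to 1.61 CPM and 0.745 to 2.38 CPM, which overlap. The part of pericytes in the rise of Pde5a was not tested. Fndc7, a fibronectin type III domain gene, measured 0.725, 0.78 and 0.966 CPM and 3.84, 3.7 and 3.76 CPM, and Pkia, a protein kinase A inhibitor gene, 1.86, 1.47 and 1.53 CPM and 6.03, 4.5 and 4.87 CPM. Their log2 fold changes were 2.19 and 1.66 (adjusted p by edgeR = 8.21e-05 and 0.000254).

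Although the median member rose, several genes fell sharply. Ptgfrn, a tetraspanin-associated membrane protein gene (101040232 to 101110278, minus strand), measured 139, 143 and 143 CPM in Scramble and 58, 56.8 and 57.9 CPM in JAG2KO. Its values were tight in both groups and far apart, with a log2 fold change of -1.30 (SE 0.059, adjusted p by edgeR = 3e-08). Npnt, which encodes the integrin ligand nephronectin (132881745 to 132950291, minus strand), measured 11, 10.7 and 9.46 CPM and 2.38, 2 and 3.07 CPM, a log2 fold change of -2.06 (SE 0.19, adjusted p by edgeR = 1.28e-05). The interferon-induced gene Ifi44 measured 22.3, 20.8 and 11.9 CPM and 6.94, 3.33 and 3.39 CPM. Scramble replicate 3 was the lowest Scramble library for Ifi44 and JagKO2 the highest JAG2KO library, but the groups did not overlap. Selenbp1, a selenium-binding protein gene, measured 12.7, 12 and 13 CPM and 4.05, 3.46 and 3.83 CPM, and the circadian repressor gene Ciart 8.93, 10.2 and 9.18 CPM and 3.27, 4.63 and 3.39 CPM. S100a7a measured 4.21, 3.55 and 3.43 CPM and 0.946, 1.38 and 0.577 CPM. The log2 fold changes of Ifi44, Selenbp1, Ciart and S100a7a were -2.02, -1.73, -1.32 and -1.95, with adjusted p by edgeR = 0.000391, 5.78e-06, 0.000228 and 0.000887. In each of them all JAG2KO libraries lay below all Scramble libraries. Ddah1, which encodes an enzyme that degrades an inhibitor of nitric oxide synthesis, lies close to Ccn1, which rose. Ddah1 measured 33.2, 34.8 and 34.9 CPM and 16.5, 19.3 and 20.5 CPM, a fall of 0.87 on the log2 scale (adjusted p by edgeR = 5.49e-05).

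Of the 5 most abundant members 4 rose, and S100a6 did not pass. Lmna, which encodes lamins A and C, measured 1627, 1639.7 and 1855 CPM in Scramble and 2155, 3005 and 2212 CPM in JAG2KO, with JagKO3 the highest. Ccn1, a secreted matricellular protein gene, measured 824, 951 and 1001 CPM and 1188, 1386 and 1563 CPM, and the ribosomal protein gene Rps3a1 1794, 1745 and 1716 CPM and 2261, 1958 and 2045 CPM. Tpm3, a tropomyosin gene, measured 932, 967 and 958 CPM and 1096, 1128 and 1102 CPM. These 4 rose without overlap, with log2 fold changes of 0.53, 0.58, 0.25 and 0.22 (adjusted p by edgeR = 0.00461, 0.00124, 0.0123 and 0.0117). S100a6 measured 1102, 1152 and 1183 CPM and 1125, 972 and 1065 CPM, so its groups overlapped and it did not pass (log2 fold change -0.12, adjusted p by edgeR = 0.215).

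**Figure D5:**
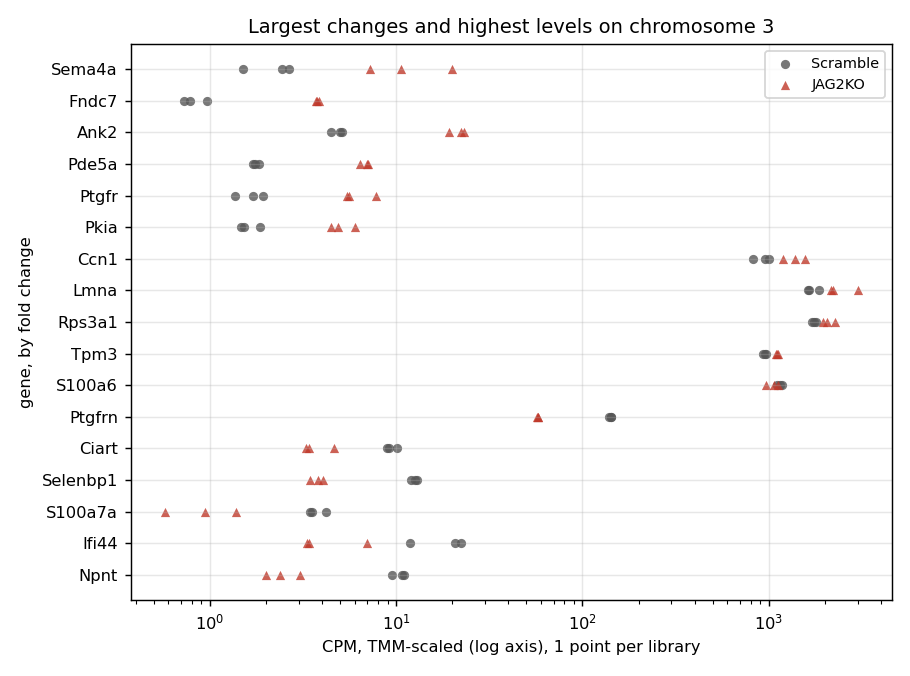
CPM in each library (log axis) of the 6 largest increases, the 6 largest decreases and the 5 most abundant members, ordered by fold change. Unnamed gene models were left out of the largest changes. Circles are Scramble and triangles JAG2KO. S100a6 is the only one of these 17 genes whose groups overlap.

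By role, the Notch pathway genes of the chromosome all rose where they reached the level limit. Of the 4 members, 4 were called higher, with a median log2 fold change of 0.45. Over all tested genes the median was 0.0018, with 11.8% called higher and 12.5% lower, and these values stand beside each gene group below. The groups were drawn from this chromosome, whose median is 0.17, so nothing particular to a group is read from them. Notch2, a receptor (98013527 to 98150361, plus strand), measured 154, 175 and 174 CPM in Scramble and 277, 269 and 263 CPM in JAG2KO, all 3 JAG2KO libraries above Scramble (log2 fold change 0.69, SE 0.067). Maml3, a coactivator of the Notch nuclear complex, measured 31.6, 31.4 and 36.2 CPM and 50.7, 45.1 and 49.6 CPM. Aph1a, a subunit of the gamma-secretase that cleaves the receptor, measured 50.6, 51.4 and 52 CPM and 71.3, 63 and 60.4 CPM. Fbxw7, whose product marks the receptor's intracellular domain for degradation, rose by 0.32 on the log2 scale. The adjusted p by edgeR = 2.01e-05, 0.000674, 0.00739 and 0.0226 for Notch2, Maml3, Aph1a and Fbxw7. Genes that promote the pathway and a gene that limits it therefore stood on the same side. The Notch target Hey1 lay under the level limit, at 0.0906, 0.0229 and 0.153 CPM in Scramble and 0.621, 0.878 and 0.484 CPM in JAG2KO. It was tested and called higher (log2 fold change 2.87, SE 0.67, adjusted p by edgeR = 0.00871), but its Scramble values rest on few counts.

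Growth factor, RAS and PI3K signalling genes differed in both directions. Of 19 members 6 were called higher and 2 lower, with a median of 0.22. Csf1, which encodes the growth factor of macrophages, measured 677, 781 and 826 CPM in Scramble and 849, 1554 and 1307 CPM in JAG2KO. JagKO2 stood just above the highest Scramble library and the other JAG2KO libraries well above it (log2 fold change 0.70, SE 0.16, adjusted p by edgeR = 0.00885). Camk2d, a calcium-dependent kinase gene, measured 132, 128 and 132 CPM and 216, 185 and 184 CPM, and the growth factor gene Pdgfc 57.1, 56.7 and 56 CPM and 80.9, 70.3 and 82.2 CPM. Both rose without overlap (adjusted p by edgeR = 0.000143 and 0.000891). The GTPase gene Nras and the PI3K catalytic subunit gene Pik3ca rose by 0.23 and 0.23 on the log2 scale (adjusted p by edgeR = 0.0146 and 0.0153). Spry1, an inhibitor of RAS signalling, and Bcar3 fell by 0.57 and 0.41 (adjusted p by edgeR = 0.0395 and 0.0393), and the Spry1 groups overlapped.

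Of 6 Wnt and TGF-beta signalling members, 3 were called higher and 1 lower, with a median of 0.22. Dkk2, a secreted Wnt antagonist (132085292 to 132180304), measured 548, 560.3 and 531 CPM in Scramble and 376, 310.1 and 309.6 CPM in JAG2KO, and its groups lay apart (log2 fold change -0.72, SE 0.079, adjusted p by edgeR = 4.87e-05). Bcl9, a coactivator of beta-catenin, rose by 0.32 (adjusted p by edgeR = 0.0104), but lost its call when trends with GC content and length were removed (log2 fold change 0.20, adjusted p = 0.0834). Sfrp2, another secreted Wnt antagonist, rose by 1.16, opposite to Dkk2 (adjusted p by edgeR = 0.0253). Skil, a repressor of TGF-beta signalling, measured 112, 99.2 and 116 CPM and 109.5, 202 and 199.9 CPM. JagKO2 lay within the Scramble range for Skil, and its call (adjusted p by edgeR = 0.0209) was lost with DESeq2 and without any of 4 single libraries (JagKO3, JagKO4 and Scramble replicates 1 and 2; adjusted p = 0.0623 to 0.095).

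Among 9 NF-kappaB and immune members, 4 were called higher and 1, Ifi44, lower, with a median of 0.21. Nfkb1, which encodes a subunit of NF-kappaB, measured 228, 238 and 261 CPM in Scramble and 278, 457 and 499 CPM in JAG2KO. JagKO2 was again the nearest to Scramble (log2 fold change 0.76, SE 0.16, adjusted p by edgeR = 0.00498). Tifa, an adaptor upstream of NF-kappaB, measured 3.53, 3.26 and 4.15 CPM and 7.27, 5.8 and 8.86 CPM (adjusted p by edgeR = 0.00324). The receptor gene Tlr2 rose by 0.64 on the log2 scale (adjusted p by edgeR = 0.014). The guanylate-binding protein genes, interferon-induced GTPases, had 4 members with a median of 0.66, of which 2 were called higher and the other 2 did not pass. Gbp5 measured 4.55, 5.66 and 4.22 CPM and 12.9, 8.62 and 6.53 CPM, and Gbp7 26.4, 26.3 and 17.9 CPM and 51.3, 33.3 and 27.6 CPM, each with the highest value in JagKO2 (adjusted p by edgeR = 0.0111 and 0.033). Without JagKO2 the log2 fold change of Gbp7 was 0.37 in place of 0.67, and it was not called (adjusted p = 0.0888). Its call was also lost with DESeq2 and without Scramble replicate 1 or 3 (adjusted p = 0.058 to 0.128). The guanylate-binding protein genes are close copies that can share reads, so their values are uncertain. Macrophages also express Tlr2, their summed markers were higher in JAG2KO as given above, and their part was not tested.

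The S100 cluster did not move as a block. Of 8 members 2 were called higher and 1 lower, with a median of 0.14. S100a4, a calcium-binding protein gene linked to cell motility, measured 5.48, 4.33 and 3.76 CPM in Scramble and 11.5, 11.5 and 13.8 CPM in JAG2KO (log2 fold change 1.44, SE 0.17, adjusted p by edgeR = 9.2e-05). S100a10, the partner of annexin A2, measured 383, 381 and 389 CPM and 499, 547 and 487 CPM (log2 fold change 0.41, adjusted p by edgeR = 0.000608). S100a7a fell, as given above. S100a6, the member next to S100a4, overlapped between the groups.

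Matrix, adhesion and protease genes also split, with 6 of 15 members called higher and 4 lower (median 0.25). Postn, which encodes the matrix protein periostin, had 31.5 ± 6.06 CPM in Scramble and 60.9 ± 8.88 CPM in JAG2KO (mean ± SD, n = 3; log2 fold change 0.95, adjusted p by edgeR = 0.000391). The collagen-binding integrin gene Itga10 had 7.58 ± 0.227 CPM and 17.2 ± 4.88 CPM (adjusted p by edgeR = 0.000504). Vcam1, an adhesion receptor for leucocytes, measured 301, 353 and 306 CPM and 218, 204 and 203 CPM, and the tetraspanin-like gene Tm4sf1 264, 249.6 and 229 CPM and 141, 156 and 151 CPM. Both fell without overlap (log2 fold change -0.62 and -0.73, adjusted p by edgeR = 8.67e-05 and 2.03e-05). Fibroblasts also express Postn, and the fibroblast markers Col1a1 and Fap moved in opposite directions, with Col1a1 at 229.9 to 391 CPM in Scramble and 430.1 to 803 CPM in JAG2KO and Fap at 17.9 to 20.1 CPM and 2.45 to 4.73 CPM. Their part in the rise of Postn was not tested.

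Genes of basic cell functions rose by small amounts or did not pass. Of 15 ribosome and translation members 8 were called higher and 7 did not pass, with a median of 0.22. They include the translation factor gene Eif2a, at 83.1, 75.8 and 80.9 CPM in Scramble and 117, 94.7 and 109 CPM in JAG2KO, Rpl22l1 at 66.2, 66 and 63 CPM and 83, 85.9 and 74.9 CPM, and Rpl34 with a log2 fold change of 0.22 (adjusted p by edgeR = 0.00278, 0.00632 and 0.0215). Of 13 metabolic enzyme and transporter members 5 were called higher and 8 did not pass, with a median of 0.19. The fatty acid oxidation enzyme gene Hadh measured 103, 96.9 and 97.9 CPM and 127, 111 and 123 CPM, and the AMP deaminase gene Ampd2 153, 152 and 153 CPM and 172, 178 and 174 CPM. Both rose without overlap (adjusted p by edgeR = 0.0119 and 0.0282), but Ampd2 lost its call without any 1 library other than JagKO2 (adjusted p = 0.0635 to 0.0842) and with GC and length trends removed (0.108), and Hadh without JagKO4 or Scramble replicate 2 (0.0532 and 0.051). Of 4 respiratory chain members Etfdh and Atp5f1 were called higher and the other 2 did not pass, with a median of 0.24. The 2 had log2 fold changes of 0.26 and 0.25 (adjusted p by edgeR = 0.0407 and 0.014). Etfdh lost its call without JagKO2, JagKO4 or any Scramble library (adjusted p = 0.0678 to 0.128). Atp5f1 lost it without JagKO4 or Scramble replicate 1 (0.057 and 0.0519) and with GC and length trends removed (0.0548).

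Among 15 cell division members, 3 were called higher and 12 did not pass, with a median of 0.094. Over all tested genes 24.3% were called in either direction. Psrc1, a spindle protein gene, measured 63.7, 60.3 and 62 CPM in Scramble and 86.8, 91.2 and 89.7 CPM in JAG2KO, and Ccnl1, a cyclin of RNA splicing, 152, 143 and 176 CPM and 211, 284 and 246 CPM. Both rose without overlap (log2 fold change 0.53 and 0.65, adjusted p by edgeR = 9.59e-05 and 0.000848), as did Lmna. The cyclin A gene Ccna2 had 121 ± 4.58 CPM and 119 ± 5.46 CPM and a log2 fold change of -0.02, and Cenpe, a kinetochore motor gene, one of 0.20. Neither passed (adjusted p by edgeR = 0.841 and 0.0885). Of 6 glutathione transferase and synthesis members Gstm2 was called higher, at 26.8, 23.2 and 23.3 CPM and 36.7, 32.2 and 29.6 CPM (adjusted p by edgeR = 0.01). The other 5 did not pass and the median was -0.15. The Gstm genes are close copies and can share reads. Of 2 histone members Hist2h2be fell, from 15.1, 14.6 and 12.3 CPM to 7.78, 6.92 and 8.33 CPM (adjusted p by edgeR = 0.000733), and H2afz did not pass (log2 fold change 0.06). Most histone messages lack a polyA tail, and the other 9 listed histone genes were under the level limit.

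In the 4 bins whose call with the smallest p is not yet named, that call was an increase. Between 30 and 40 Mb it was Zmat3, an RNA-binding target of p53, at 138, 113 and 112 CPM in Scramble and 184, 211 and 202 CPM in JAG2KO. Between 40 and 50 Mb it was the chromatin reader gene Jade1, at 74.8, 70.1 and 66.6 CPM and 114, 86.5 and 111 CPM. Ppm1l, a protein phosphatase gene between 60 and 70 Mb, measured 58.6, 62.2 and 61.3 CPM and 106, 102 and 104 CPM, and Fnip2, a folliculin partner gene between 70 and 80 Mb, 39, 37.9 and 36.1 CPM and 51.7, 49.6 and 57.3 CPM. All 4 rose without overlap (adjusted p by edgeR = 0.000118, 0.00145, 4.28e-06 and 0.000923). In most of the other compared bins the smallest p belonged to a fall (Mtfr1, Gyg, Tm4sf1, Selenbp1, Ptgfrn, Vcam1, Npnt and Ddah1). In the rest it belonged to a rise (Tmem131l, Ank2 and Ptgfr).

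Where genes overlap, reads can be counted for the wrong gene or left uncounted, since the files and labels do not say whether the authors counted by strand. On the opposite strand Aph1a overlaps exons of Car14, Atp5f1 those of Wdr77, and Eif2a those of Serp1. Opposite-strand gene models also overlap Ank2, Pde5a, Ptgfr, Vcam1, Pdgfc, Tifa, Ccnl1, Jade1, Ampd2, Etfdh, Rpl22l1 and Adh7. Same-strand models overlap Notch2, S100a4, Sema4a and Gbp7. Ribosomal protein genes such as Rps3a1 and Rpl34 have many pseudogene copies, so reads could also be split between copies there.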

How the data were processed

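PolyA RNA of sorted Lewis lung carcinoma cells was sequenced in 3 Scramble and 3 JAG2KO libraries. The deposited table holds raw counts by gene ID. The submitters' processing notes name the aligner STAR 2.7.7a and the counter HTSeq 0.11.2, but the build, annotation and strand setting behind the counts are not given there or in the labels. Of the gene IDs, 55154 matched GENCODE M21 (GRCm38) by stable ID, which gave positions, and the 180 others held 0.00193% of counts. The JAG2KO columns are numbered 2 to 4 and the titles 1 to 3, so they were used without replicate numbers.

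Membership used counts divided by column totals; printed CPM use TMM-scaled totals. Counts of all genes were tested with edgeR 4.0.16 in R 4.3.3 (filterByExpr with minimum count 10 and total 15, TMM, quasi-likelihood F test, Benjamini-Hochberg adjustment, called under 0.05), with 4 residual degrees of freedom. Standard errors are the log2 fold change over the square root of F. The piecewise constant fit used log2 fold changes limited to 2, segments of at least 10 members and a penalty of 3. The fits were tested on simulated data, with recovery by the piecewise constant fit required only for the largest step tried.

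The members, the gene lists and the naming rule were chosen with earlier results of these data known. The rule names the 6 largest called changes each way without overlap, leaving out unnamed gene models (Gm, Rik or clone symbols). It also names the smallest p of each bin and the members at segment borders. Up to 3 called members of each list (or 1 member where none was called) are named as well. The 5 most abundant members and those at the level limit complete it. Genes of the Sfrp2 to Dclk2 window, Trim46, Adam15, Hey1 and some further list members were named after their values were seen. The values of 1 further list member are not reported here. The counts were also tested with DESeq2 1.42.0 and limma-voom (limma 3.58.1). Further alternatives were scaling by RLE or by totals, dropping the filter or asking for CPM 1 in 3 libraries, leaving out each library, removal of trends on GC content and longest transcript (splines with 5 degrees of freedom; 99.93% of tested genes had both), other level limits, bins and penalties.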

Additional observations from a re-analysis of the deposited data

How the results depend on the processing

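The members' rise kept its direction under every alternative run: 126 to 207 members were called higher and 22 to 34 lower. The median log2 fold change was 0.15 with GC and length trends removed and 0.18 with a filter of CPM 1 in 3 libraries, and 0.16 to 0.19 with single libraries left out. Over the scaling, filter and test settings it stayed 0.18 to 0.19 above that of other genes. The lowest bin median, 0.032, was the value that turned: it was -0.0499 with the trends removed, -0.0007 at a level limit of 5 CPM, 0.045 with the CPM filter, 0.021 in 5 Mb bins, and -0.033 to 0.040 with single libraries left out; the cause was not tested. The highest bin median, 0.25, was 0.23 with the trends removed, 0.26 with the CPM filter, 0.33 in 5 Mb bins and 0.21 to 0.29 with single libraries left out. In 5 Mb bins, 22 of the 22 compared held more higher than lower calls. The piecewise constant fit gave 1 segment in each run. With single libraries left out 126 to 186 members were called higher, 22 to 33 lower, 12 to 15 bins had more higher calls and 47 to 50 of the 52 called named genes stayed called. Of the 52, 44 kept call and direction throughout; Skil, Etfdh, Rps3a1, Bcl9, Atp5f1, Ampd2, Hadh and Gbp7 did not. Rps3a1 had an adjusted p = 0.0518 without Scramble replicate 3 (edgeR). No paired analysis was possible because the JAG2KO columns carry no replicate numbers that match the labels. Small changes in genes near the level limit are limited by depth.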
